A study of Mus musculus with 16 samples.

Results

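Integrins and cadherins are the cell surface receptors with which osteoblast-lineage cells hold on to bone matrix and to each other. The genes described here were the protein-coding genes of the mouse mm9 annotation (GENCODE vM1) whose symbols begin with Itga or Itgb, without the Itgb1bp, Itgbl and Itgb3bp genes, or consist of Cdh and digits. There were 50 of them among 22238 protein-coding genes: 18 integrin alpha genes, 9 integrin beta genes and 23 cadherin genes. Membership followed the gene name and not a measured value, but the families were chosen with earlier results of these data known.

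The study mapped RUNX2, the runt-domain transcription factor required for osteoblast formation, in the mouse pre-osteoblast line MC3T3-E1, and its title asks how RUNX2 binding declines as the cells differentiate. Differentiated cells had been kept for 15 days with 50 µg/mL ascorbic acid plus glycerol-2-phosphate at 10 mM, and their mineralised matrix was broken up with a homogeniser and spun off through sucrose before chromatin was prepared. Undifferentiated cells were the same line without that treatment. Cells of both states were at passages 5 to 12 and had received ethanol vehicle for 3 h. Chromatin immunoprecipitation with sequencing (ChIP-seq) was done with 7 antibodies in each state, against RUNX2, the leucine zipper factor C/EBPβ and the histone marks H3K4me3, H3K9Ac, H4K5Ac, H3K4me1 and H3K36me3. The mark called H4K5Ac by its antibody label is written H3K5Ac in the protocol, and the state of the differentiated H3K36me3 sample was taken from its title because another of its labels was garbled. The input DNA samples were not analysed here.

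Integrins are heterodimers of an alpha and a beta chain that bind matrix proteins such as collagens, fibronectin and laminins outside the cell and couple to talin, kindlin and vinculin inside it. Cadherins bind the same cadherin on a neighbouring cell in the presence of calcium and are tied to actin through catenins. In the osteoblast lineage, N-cadherin (Cdh2) and cadherin-11 (Cdh11) are the well-known cadherins, and collagen-binding and RGD-binding integrins are the well-known matrix receptors.

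Each of the 14 deposited lists held the regions called for 1 antibody in 1 state, with replicates already merged, so no difference between states has a replicate check and no p-value can be given. Reads per library are unknown. The RUNX2 list held 6272 peaks in differentiated cells and 12674 in undifferentiated cells, and the C/EBPβ list held 10847 and 15622. The H3K9Ac list went the other way, with 23671 regions in differentiated cells and 14975 in undifferentiated cells. List length therefore moves with the state, and its part in the results below was not tested. Of 9 osteoblast marker genes, 5 had an H3K4me3 region at a promoter in differentiated cells and 5 in undifferentiated cells. These were not the same 5: Spp1 had one only in differentiated cells and Sp7 only in undifferentiated cells. Alpl, Ibsp and Bglap had none in either state. The marker sets for adipocytes, muscle, haematopoietic, endothelial and epithelial cells had 0 promoters with H3K4me3 in either state, and the chondrocyte set had 1 of 5 in each. Of the 5 haematopoietic markers, 4 were found in the annotation.

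Examples of RUNX2 sites at integrin and cadherin genes are shown here in full, read from the mm9 plus strand between the ends of the deposited peaks. Capitals mark TGTGGT, the core RUNX motif, or ACCACA, the same motif on the other strand. A site is called shared where peaks of both states overlapped by at least 1 bp. The Itga11 and Itgb5 sites stand for shared sites at matrix receptors, the Itgb3 site for a peak seen only in differentiated cells, and the others for peaks seen only in undifferentiated cells. Every printed site holds the motif. Sites without it, such as the shared Itga11 site at chr9:62532181-62532381, are not printed.
Itga11 shared site at chr9:62562688-62562888: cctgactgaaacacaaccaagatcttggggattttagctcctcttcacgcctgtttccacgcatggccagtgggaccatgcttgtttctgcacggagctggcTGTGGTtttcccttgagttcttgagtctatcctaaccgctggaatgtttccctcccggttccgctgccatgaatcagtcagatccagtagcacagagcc
Itgb5 shared site at chr16:33889236-33889436: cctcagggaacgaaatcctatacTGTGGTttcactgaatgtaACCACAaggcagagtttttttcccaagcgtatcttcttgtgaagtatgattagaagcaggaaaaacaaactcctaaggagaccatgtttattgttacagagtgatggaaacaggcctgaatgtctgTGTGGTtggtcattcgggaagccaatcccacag
Itgb3 differentiated-only site at chr11:104475521-104475721: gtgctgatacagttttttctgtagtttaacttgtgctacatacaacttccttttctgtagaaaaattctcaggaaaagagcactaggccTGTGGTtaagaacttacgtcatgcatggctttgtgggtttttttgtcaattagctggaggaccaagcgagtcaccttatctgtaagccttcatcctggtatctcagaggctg
Itga3 undifferentiated-only site at chr11:94956095-94956295: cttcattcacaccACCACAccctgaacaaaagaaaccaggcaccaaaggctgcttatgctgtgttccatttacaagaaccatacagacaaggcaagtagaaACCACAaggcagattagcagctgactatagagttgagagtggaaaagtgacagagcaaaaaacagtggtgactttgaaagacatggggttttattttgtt
Cdh3 undifferentiated-only site at chr8:109042633-109042833: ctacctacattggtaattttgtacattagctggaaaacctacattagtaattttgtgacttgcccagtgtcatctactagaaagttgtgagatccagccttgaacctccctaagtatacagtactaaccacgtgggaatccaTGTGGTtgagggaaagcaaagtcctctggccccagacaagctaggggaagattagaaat
Cdh3 undifferentiated-only site at chr8:109045776-109045976: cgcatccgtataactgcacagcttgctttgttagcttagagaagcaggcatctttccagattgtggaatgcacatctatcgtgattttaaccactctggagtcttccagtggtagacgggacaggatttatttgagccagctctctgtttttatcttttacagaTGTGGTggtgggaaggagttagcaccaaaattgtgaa
Cdh1 undifferentiated-only site at chr8:109165918-109166118: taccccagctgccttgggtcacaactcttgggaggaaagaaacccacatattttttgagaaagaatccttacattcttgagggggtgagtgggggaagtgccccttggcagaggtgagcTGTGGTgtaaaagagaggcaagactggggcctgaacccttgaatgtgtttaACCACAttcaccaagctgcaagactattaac
Cdh23 undifferentiated-only site at chr10:59908014-59908214: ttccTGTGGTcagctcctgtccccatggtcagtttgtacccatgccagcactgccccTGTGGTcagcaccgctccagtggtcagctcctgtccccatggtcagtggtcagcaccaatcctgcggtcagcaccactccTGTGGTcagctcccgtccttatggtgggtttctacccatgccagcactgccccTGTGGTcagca

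The Itga11 site holds the motif 1 time, the shared Itgb5 site 3 times, and the Itga3 and Cdh1 sites 2 times each. By the ends of its undifferentiated peak, the Itgb5 site holds it 2 times. The Cdh23 site holds it 4 times within a repeated sequence, and it is the member RUNX2 peak with the most copies. This Cdh23 site lay outside the regions of every histone mark in both states. Across the members, TGTGGT was present on either strand in 11 of 22 RUNX2 peaks of differentiated cells (50%) and in 21 of 47 of undifferentiated cells (44.7%). Over the whole RUNX2 lists the shares were 59.6% and 51.5%, and in windows of the same length 1 kb to either side of each listed peak they were 15.0% and 14.9%. By kind of site, 3 of 7 differentiated-only peaks and 15 of 32 undifferentiated-only peaks held it. At the 15 shared sites, where the peak ends differ between the lists, 8 held it by the ends of differentiated cells and 6 by the ends of undifferentiated cells. A match describes the sequence only.

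RUNX2 peaks were assigned to the gene with the nearest transcription start site (TSS) within 100 kb. By that rule 11 members had a RUNX2 peak in differentiated cells and 20 had one in undifferentiated cells, and all 11 were among the 20. The shares of members were 22% (exact Clopper-Pearson 95% interval 11.5 to 35.96) in differentiated cells and 40% (26.4 to 54.8) in undifferentiated cells. Among all genes the shares were 15.0% and 27.3%. These intervals cover counting error only. The members held 22 RUNX2 peaks in differentiated cells and 47 in undifferentiated cells, a ratio of 0.468, against 0.485 over all genes. For integrins there were 17 peaks and 33 peaks, and for cadherins 5 and 14. Fewer peaks in differentiated cells were seen at 13 members (26%), against 19.8% of all genes, and more at 2 members (4%), against 2.92% of all genes. Among genes with a peak in either state, 65% of members and 68.1% of all genes had fewer. The share with fewer peaks thus lay near that of all genes. With peaks counted at every gene with a TSS within 20 kb, 7 members (14%) had a RUNX2 peak in differentiated cells and 14 (28%) in undifferentiated cells, below the 16.0% and 32.5% of all genes. By gene body plus 10 kb, or with 1 TSS per gene, 4 members (8%) had more RUNX2 peaks in differentiated cells, against 2.71% and 2.90% of all genes.

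**Figure D1:**
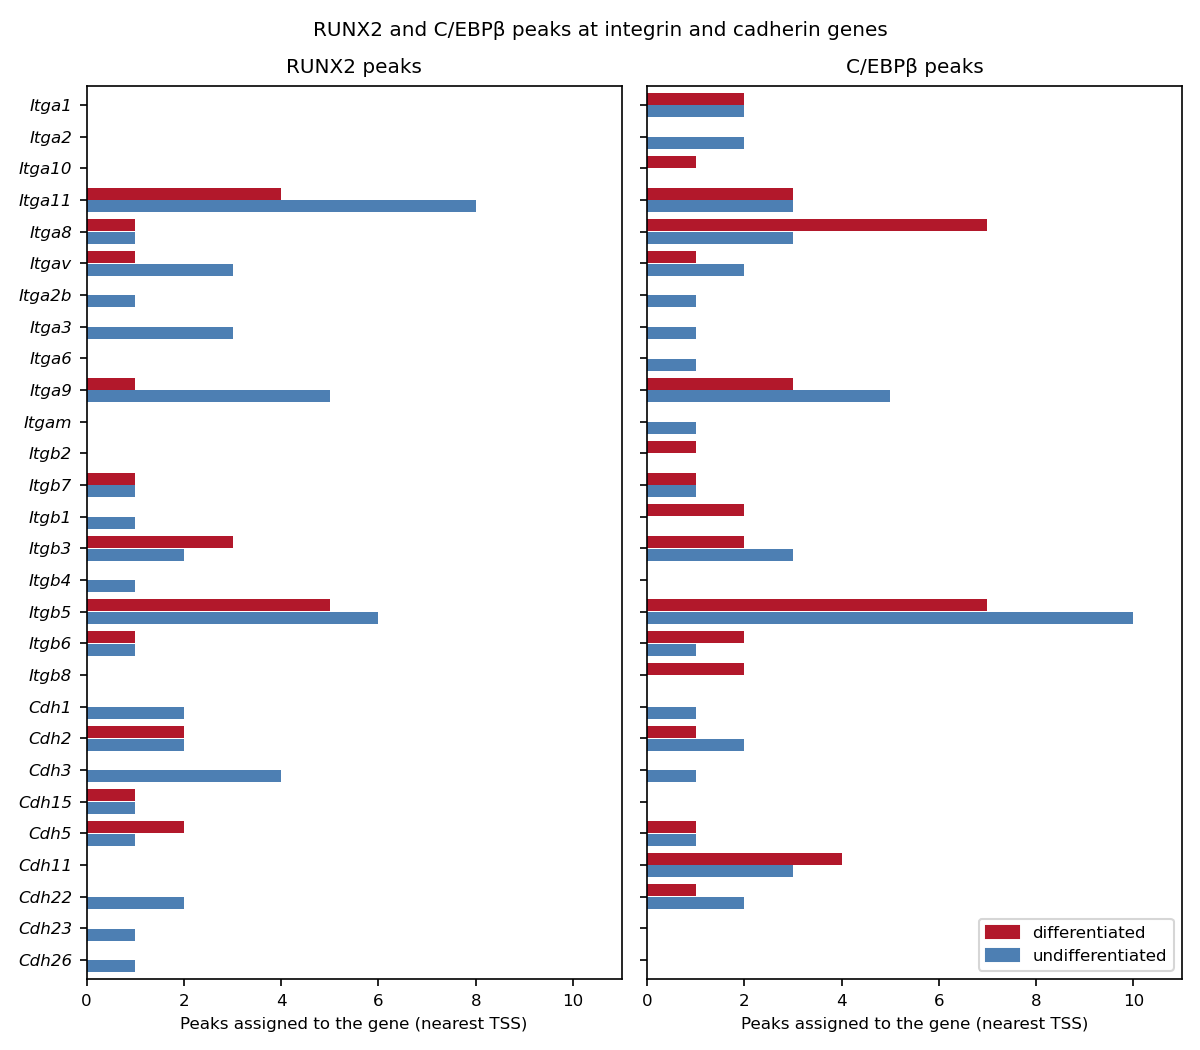
RUNX2 peaks (left) and C/EBPβ peaks (right) assigned to each integrin or cadherin gene that had at least 1 peak of either factor, with the number of peaks on the x axis, differentiated cells in red above undifferentiated cells in blue. RUNX2 counts reach 8 at Itga11 in undifferentiated cells against 4 in differentiated cells, and C/EBPβ counts at Itga8 are 7 in differentiated cells and 3 in undifferentiated cells.

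Collagen-binding alpha chains were the first group by role. Itga11, the alpha chain of a fibrillar collagen receptor of mesenchymal cells (chr9:62525633-62631789, plus strand), had 4 RUNX2 peaks in differentiated cells and 8 in undifferentiated cells, the most of any member in undifferentiated cells. Of these, 3 intronic sites were shared, the nearest of them 6614 bp from a TSS. Counting only peaks within 20 kb of a TSS left 1 in each state. Upstream of the gene, differentiated cells had 1 peak not called in undifferentiated cells, at 30931 bp, and undifferentiated cells had 4 peaks not called in differentiated cells, from 31842 to 56540 bp. C/EBPβ had 3 peaks at Itga11 in each state, including a shared peak at the promoter. Itga1, the chain of a collagen receptor with a preference for network collagens, had no assigned RUNX2 peak and 2 shared C/EBPβ peaks, 1 of them at its promoter. Undifferentiated-only peaks of both factors also lay in the Itga1 body, nearer to TSSs of Pelo or Itga2. By gene body plus 10 kb, Itga1 had 0 RUNX2 peaks in differentiated cells and 1 in undifferentiated cells. Its C/EBPβ counts were then 2 and 4. Itga2, another collagen receptor chain, had 0 C/EBPβ peaks in differentiated cells and 2 in undifferentiated cells. Of these 2, 1 lay in an intron of Itga1, and by gene body plus 10 kb Itga2 had 0 and 1. Itga10, which is known from cartilage, had 1 C/EBPβ peak in differentiated cells and 0 in undifferentiated cells by nearest TSS. An undifferentiated-only peak of each factor also lay in the Itga10 body, nearer to the TSS of Rpl21-ps11, and by gene body plus 10 kb the C/EBPβ count was 1 in each state.

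**Figure D2:**
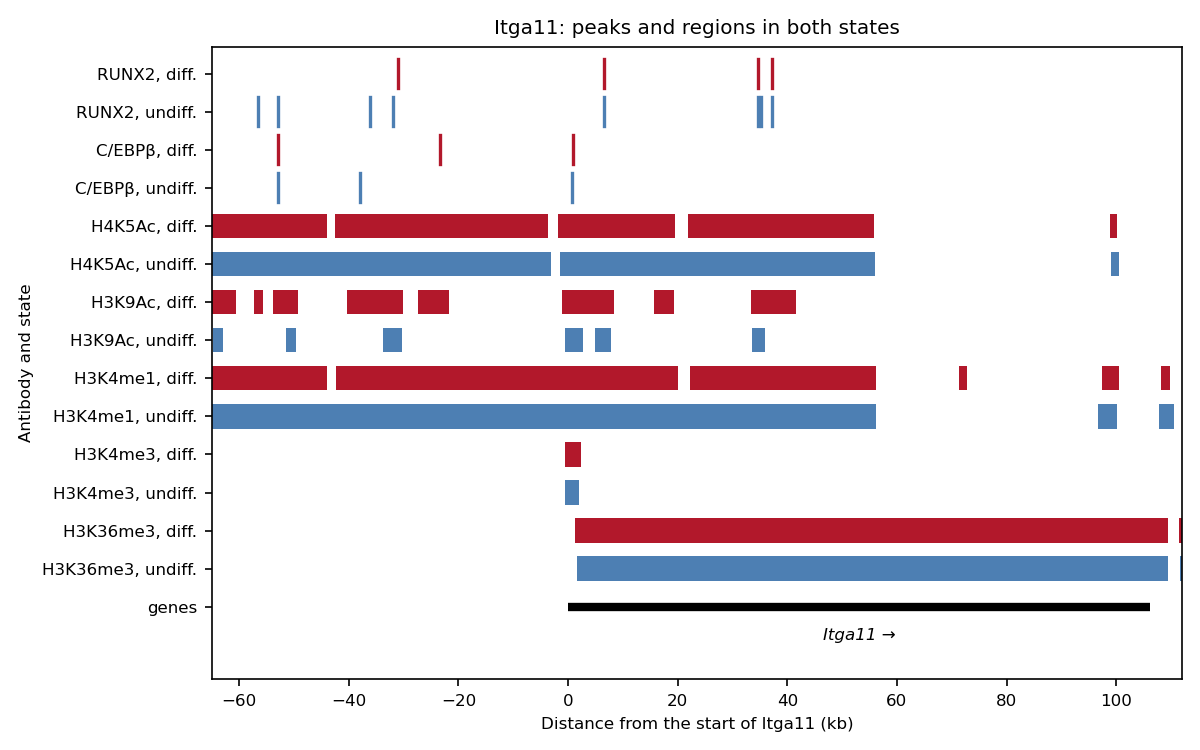
Peaks and regions of all 14 lists around Itga11, by distance in kb from the gene's start, with differentiated cells in red above undifferentiated cells in blue for each antibody and the gene body in black. The RUNX2 rows share 3 intronic sites, the H3K36me3 regions run the length of the gene in both states, and the H3K9Ac regions are wider in differentiated cells.

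The map of Itga11 shows that both states had broad H4K5Ac and H3K4me1 regions over the upstream stretch and the 5′ part of the gene. H3K9Ac regions covered 19.0% of the Itga11 body in differentiated cells and 7.50% in undifferentiated cells. H4K5Ac regions covered 51.6% and 54.2% of it. The 3 undifferentiated-only RUNX2 sites farthest upstream lay inside an H3K9Ac region of differentiated cells and outside every H3K9Ac region of undifferentiated cells.

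Alpha chains that recognise the RGD motif of fibronectin and vitronectin came next. Itgav, the alpha V chain shared by several vitronectin receptors (chr2:83564554-83647073), had 1 RUNX2 peak in differentiated cells and 3 in undifferentiated cells. The shared site lay 10123 bp upstream of a TSS and overlapped a C/EBPβ peak in both states. Itga5, the alpha chain of the main fibronectin receptor, had no RUNX2 or C/EBPβ peak by nearest TSS. A shared C/EBPβ peak did lie inside the Itga5 body, closer to the TSS of the neighbouring gene Zfp385a. Itga8, a chain of a receptor for nephronectin and other RGD ligands, had 7 C/EBPβ peaks in differentiated cells and 3 in undifferentiated cells, the widest gap in favour of differentiated cells among the members. Of the 7, 2 were shared. Itga8 also had 1 RUNX2 peak in each state, but at different places. They lay 11836 bp from a TSS in differentiated cells and 83159 bp from a TSS in undifferentiated cells. Every other assignment gave 1 RUNX2 peak at Itga8 in differentiated cells and 0 in undifferentiated cells. Itga2b, the platelet fibrinogen receptor chain, had 0 RUNX2 peaks in differentiated cells and 1 in undifferentiated cells, 35 bp from a TSS and overlapping a C/EBPβ peak that was likewise absent from the differentiated list.

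Among laminin-binding chains, Itga3 (chr11:94905788-94938115, minus strand) had 0 RUNX2 peaks in differentiated cells and 3 in undifferentiated cells, clustered from 18080 to 19979 bp upstream. The first of the 3 is printed above with its pair of motif copies. All 3 lay inside H4K5Ac, H3K9Ac and H3K4me1 regions in both states. Itga6 had 0 C/EBPβ peaks in differentiated cells and 1 in undifferentiated cells, and Itga7, a chain of the muscle laminin receptor, had no peak of either factor. Itga9, a chain that binds tenascin and osteopontin, had 1 RUNX2 peak in differentiated cells and 5 in undifferentiated cells, with 3 C/EBPβ peaks and 5 C/EBPβ peaks. All of these Itga9 peaks lay in introns of Itga9. By gene body plus 10 kb, the counts in differentiated and undifferentiated cells were 1 and 5 for RUNX2 and 3 and 6 for C/EBPβ. Their assignment by nearest TSS rests on alternative transcripts: with 1 TSS per gene, 0 peaks of either factor were assigned to Itga9 in either state. The related Itga4 had none.

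Among beta chains, Itgb5, partner of alpha V in a vitronectin receptor (chr16:33829751-33949239, plus strand), had 5 RUNX2 peaks in differentiated cells and 6 in undifferentiated cells, and 4 of them were shared. It had 7 C/EBPβ peaks in differentiated cells and 10 in undifferentiated cells, the most of any member in undifferentiated cells, with 6 shared. The shared RUNX2 site with 3 motif copies printed above overlapped a C/EBPβ peak in both states. Itgb3, the beta chain of the alpha V receptor that osteoclasts also use (chr11:104469370-104531790, plus strand), had 3 RUNX2 peaks in differentiated cells and 2 in undifferentiated cells. Both undifferentiated sites were shared, and the added one lay in an intron 6251 bp from a TSS. Its C/EBPβ peaks numbered 2 in differentiated cells and 3 in undifferentiated cells, 1 of them shared. A further differentiated-only C/EBPβ peak lay in the Itgb3 body, nearer to the TSS of Gm11639. By gene body plus 10 kb the C/EBPβ count at Itgb3 was 3 in each state. Itgb1, the common beta chain of most matrix-binding integrins, had 0 RUNX2 peaks in differentiated cells and 1 in undifferentiated cells, 39459 bp upstream. For C/EBPβ, Itgb1 had 2 peaks in differentiated cells and 0 in undifferentiated cells, 69759 and 76475 bp upstream. Itgb6 had 1 shared RUNX2 peak in each state, and Itgb4, the hemidesmosome chain, had 0 peaks in differentiated cells and 1 in undifferentiated cells, inside an intron of Sap30bp. Itgb8 had 2 C/EBPβ peaks in differentiated cells and 0 in undifferentiated cells, 1 of them 187 bp from a TSS.

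Leukocyte integrins served as receptors not known from osteoblasts. The 5 leukocyte alpha genes had 0 RUNX2 peaks in both states by nearest TSS, and of C/EBPβ they had 0 peaks in differentiated cells and 1 in undifferentiated cells, at Itgam. By gene body plus 10 kb, Itgae had 2 RUNX2 peaks in differentiated cells and 0 in undifferentiated cells, 1 of them inside its body and nearest to the TSS of Gsg2. Among the leukocyte beta genes, Itgb2, the chain shared by most of these receptors, had 1 C/EBPβ peak in differentiated cells and 0 in undifferentiated cells. Itgb7 had 1 RUNX2 peak and 1 C/EBPβ peak in each state, all close to its TSS and each shared between the states.

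P-cadherin (Cdh3, chr8:109034791-109080808) and E-cadherin (Cdh1, chr8:109127251-109194146) are neighbours that are best known from epithelia. Cdh3 had 0 RUNX2 peaks in differentiated cells and 4 in undifferentiated cells, all in its introns between 5910 and 19088 bp from a TSS. Cdh1 had 0 RUNX2 peaks in differentiated cells and 2 in undifferentiated cells, 36993 and 37975 bp downstream of a TSS. A further undifferentiated-only RUNX2 peak in the Cdh1 body lay nearer to the TSS of Tmco7. Between both genes, a RUNX2 peak 12075 bp from the TSS of Gm10073 was shared, so 1 RUNX2 site of the interval was called in differentiated cells. C/EBPβ had 0 peaks in differentiated cells and 1 in undifferentiated cells at each of Cdh3 and Cdh1.

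**Figure D3:**
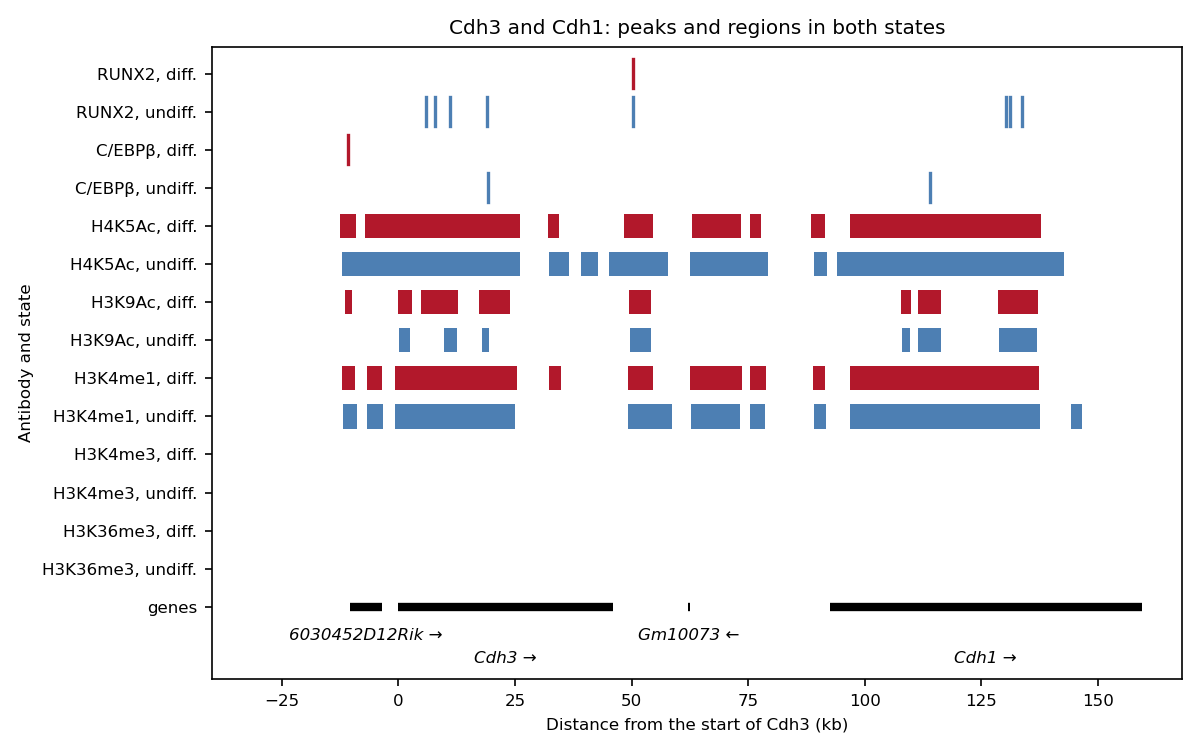
Peaks and regions of all 14 lists across Cdh3 and Cdh1, by distance in kb from the start of Cdh3, with differentiated cells in red above undifferentiated cells in blue for each antibody and gene bodies in black. RUNX2 peaks within Cdh3 and Cdh1 are present in undifferentiated cells only, while H4K5Ac and H3K4me1 regions lie over these sites in both states, H3K9Ac regions at Cdh3 are wider in differentiated cells, and H3K4me3 and H3K36me3 are absent.

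All 6 of these undifferentiated-only sites lay inside H4K5Ac and H3K4me1 regions in both states. In differentiated cells all 6 also lay inside an H3K9Ac region, and in undifferentiated cells 4 did. H3K9Ac regions covered 38.4% of the Cdh3 body in differentiated cells and 14.7% in undifferentiated cells. Neither gene had H3K4me3 at a promoter or any H3K36me3 in its body in either state.

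Among the other cadherins, Cdh2 (N-cadherin) had 2 RUNX2 peaks in each state, of which 1 was shared, and it had 1 C/EBPβ peak in differentiated cells and 2 in undifferentiated cells. Cdh11 had 0 RUNX2 peaks in both states, and it had 4 C/EBPβ peaks in differentiated cells and 3 in undifferentiated cells, with all 3 of the undifferentiated sites shared. Cdh5, the endothelial cadherin, had 2 RUNX2 peaks in differentiated cells, 78333 and 78661 bp upstream, and 1 in undifferentiated cells, 78534 bp upstream. The second of its differentiated peaks began at 106547092 on chromosome 8, directly after the undifferentiated peak ended at 106547091. Cdh22 had 0 RUNX2 peaks in differentiated cells and 2 in undifferentiated cells, each overlapping a C/EBPβ peak there. Cdh23 and Cdh26 each had 0 in differentiated cells and 1 in undifferentiated cells by nearest TSS. By gene body plus 10 kb Cdh23 had 1 RUNX2 peak in differentiated cells, a shared site nearer to the TSS of 4632428N05Rik, and 4 in undifferentiated cells, and with 1 TSS per gene it had 0 in each state. Cdh15, the muscle cadherin, had 1 in each state at different places inside Ankrd11. Cdh4, the retinal cadherin, had no assigned peak because its shared RUNX2 site, inside its body, lay 107853 bp from its nearest TSS, beyond the distance limit, as did a shared C/EBPβ site close by.

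C/EBPβ peaks were found at 17 members (34%) in differentiated cells and at 20 (40%) in undifferentiated cells, and the shares of all genes were 21.8% and 27.7%. The members held 41 C/EBPβ peaks in differentiated cells and 46 in undifferentiated cells, a ratio of 0.891, against 0.696 over all genes. Fewer C/EBPβ peaks in differentiated cells were seen at 13 members (26%), against 16.1% of all genes, and more at 7 members (14%; interval 5.82 to 26.7), against 6.15% of all genes. The 7 were Itga10, Itga8, Itgb2, Itgb1, Itgb6, Itgb8 and Cdh11, and with peaks counted at every gene with a TSS within 20 kb the count was 3 (6%), against 6.11% of all genes. A C/EBPβ peak in either state was at 48% of members and 31.2% of all genes. Among these genes, 54.2% of members and 51.6% of all genes had fewer, and 29.2% and 19.7% had more. The share with fewer C/EBPβ peaks thus lay near that of all genes. Of the 41 peaks in differentiated cells, 18 (43.9%) were absent from undifferentiated cells, against 37.9% of that whole list. The motif TTGCNNAA, the C/EBP palindrome with any letters at N, was present on either strand in 19 of the 41 (46.3%) and in 16 of the 46 (34.8%), against 44.8% and 41.1% of the whole lists.

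RUNX2 and C/EBPβ peaks overlapped at 4 of 22 member RUNX2 peaks in differentiated cells (18.2%) and at 17 of 47 in undifferentiated cells (36.2%). Over the whole RUNX2 lists the shares were 22.2% and 31.1%. The 4 in differentiated cells were at Itgav, Itgb5, Cdh2 and Cdh5.

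Of the 22 member RUNX2 peaks in differentiated cells, 15 (68.2%) were shared with undifferentiated cells, against 73.8% of the whole list. Of the 47 in undifferentiated cells, 15 (31.9%) were shared, against 36.4% of that list. Introns held 15 of the 22 (68.2%) and 29 of the 47 (61.7%), against 35.0% and 31.9% of the whole lists. The bodies of several members with RUNX2 peaks are long, such as Itga9 at 294314 bp and Cdh2 at 220370 bp, and gene length was not matched in this comparison. In promoters, within 1 kb of a TSS, there were 3 of 22 peaks (13.6%) and 5 of 47 (10.6%), against 18.6% and 26.0% of the whole lists. No member RUNX2 peak lay inside an H3K4me3 region. With 0 of 22 and 0 of 47, the upper bounds of the intervals were 15.4% and 7.55%, against 16.7% and 24.4% of the whole lists. These bounds count each peak as independent, though several lay close together at the same gene.

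Almost all member RUNX2 peaks lay in H4K5Ac and H3K4me1 regions of their own state: 21 and 22 of 22 in differentiated cells (95.5% and 100%), and 45 and 45 of 47 in undifferentiated cells (95.7% each). These shares were close to those of the whole RUNX2 lists, which were 94.8% and 98.4% in differentiated cells and 97.1% and 96.6% in undifferentiated cells. H3K9Ac regions held 18 of 22 (81.8%) in differentiated cells and 23 of 47 (48.9%) in undifferentiated cells, against 74.95% and 54.96% of the whole lists. The 32 undifferentiated-only RUNX2 sites were then set against the mark lists of both states. H4K5Ac regions held 31 of them in each state (96.9%), against 92.3% in differentiated cells and 96.6% in undifferentiated cells for all undifferentiated-only RUNX2 sites. H3K9Ac regions held 30 of them in differentiated cells (93.75%; interval 79.2 to 99.2) and 15 in undifferentiated cells (46.9%; 29.1 to 65.3). For all undifferentiated-only RUNX2 sites the H3K9Ac shares were 73.6% and 54.7%. Several of the 32 lay close together at the same gene, such as those upstream of Itga3. The intervals count each site as independent, so they may be too narrow. At the 15 shared sites, H3K9Ac regions held 14 in differentiated cells (93.3%) and 8 in undifferentiated cells (53.3%), against 83.0% and 55.4% of all shared sites. The longer H3K9Ac list in differentiated cells moved with these values, and its part in them was not tested. With only the upper 75% of H3K9Ac regions by score, the share of member RUNX2 peaks inside them in undifferentiated cells was 34.0%.

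H3K4me3, a mark of active promoters, was found within 1 kb of a TSS at 9 members (18%) in differentiated cells and 8 (16%) in undifferentiated cells. The intervals were 8.58 to 31.4 and 7.17 to 29.1, below the 40.1% and 34.9% of all genes. The members with the mark in both states were Itga11, Itga5, Itgav, Itga3, Itgb1, Itgb5 and Cdh11. The promoter region at Cdh11 was 6260 bp wide in differentiated cells and 5197 bp wide in undifferentiated cells. At Itgb5 the widths were 3254 bp and 12503 bp, and at Itgav 4014 bp and 11281 bp. H3K4me3 was present only in differentiated cells at Itga1 and Itgb3 (4% of members, against 6.60% of all genes). It was present only in undifferentiated cells at Cdh2 (2%, against 1.45% of all genes). The scores of these 1-state regions stood at percentile 11.7 of their list for Itga1, 9.76 for Itgb3 and 14.5 for Cdh2, and none was left when only the upper 75% of regions by score were kept. The Itga3 region stood at percentile 62.8 in differentiated cells but at 2.44 in undifferentiated cells, so its call in both states rests on a weak region.

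**Figure D4:**
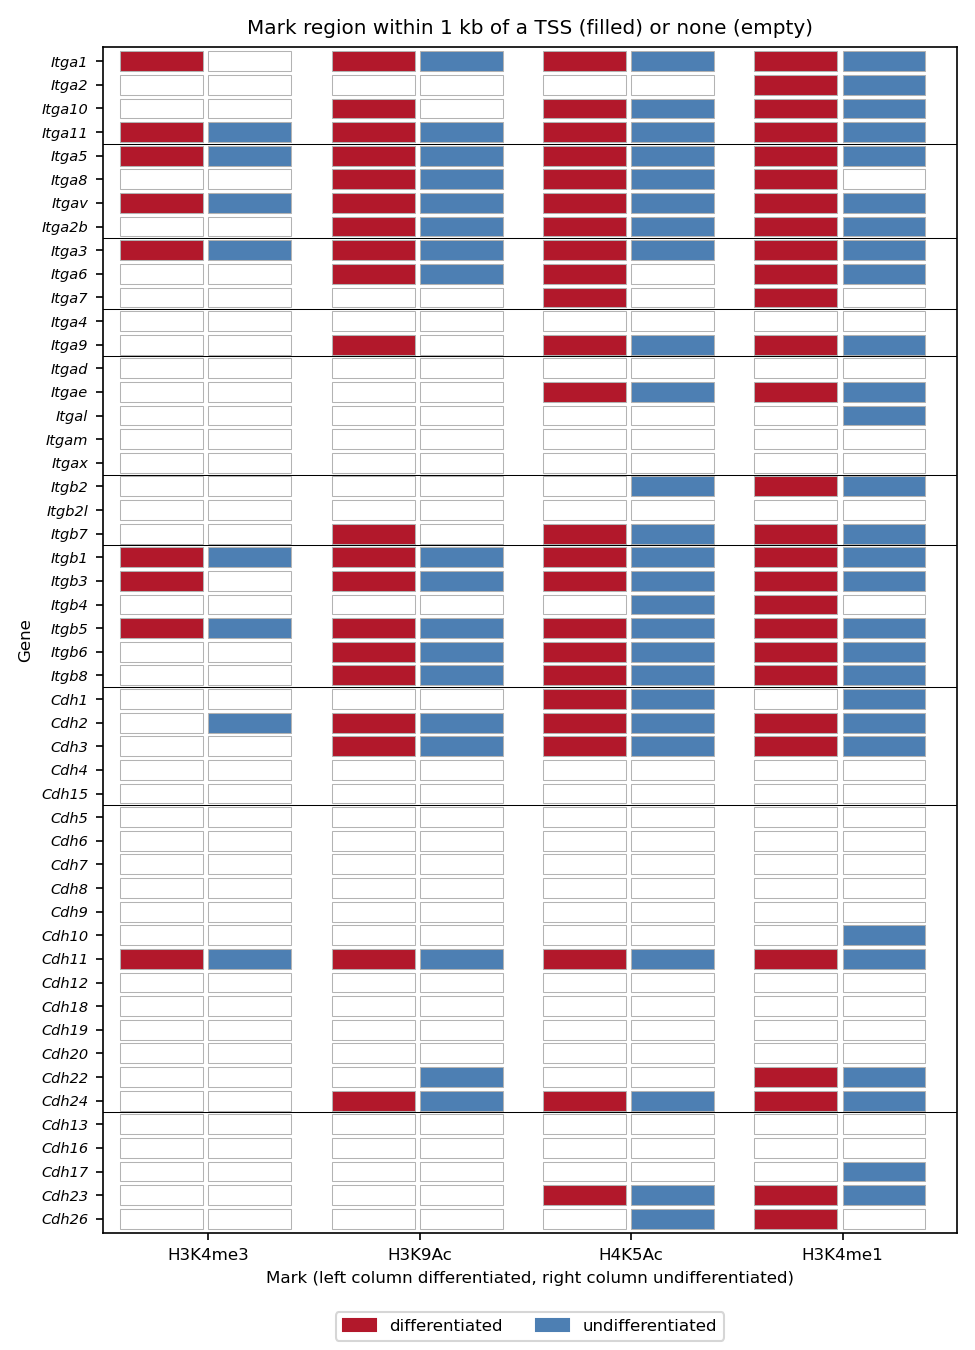
Presence of H3K4me3, H3K9Ac, H4K5Ac and H3K4me1 regions within 1 kb of a TSS of each of the 50 genes, filled red for differentiated cells (left of each pair) and blue for undifferentiated cells (right). Genes are grouped by role with horizontal lines between groups. Collagen-binding, RGD-binding and beta chains carry most of the filled cells, and type II cadherins other than Cdh10, Cdh11, Cdh22 and Cdh24 are empty.

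The other promoter marks are drawn beside H3K4me3 in the plot of promoter marks by gene. H3K9Ac was at 20 member promoters in differentiated cells and 18 in undifferentiated cells, against 52.5% and 49.2% of all genes. It was present only in differentiated cells at Itga10, Itga9 and Itgb7 (3 members, 6%, against 3.39% of all genes) and only in undifferentiated cells at Cdh22 (2%, against 0.157%). H4K5Ac was at 24 and 25 members, against 54.3% and 55.5% of all genes. It was present only in differentiated cells at Itga6 and Itga7 (4%, against 1.18%) and only in undifferentiated cells at Itgb2, Itgb4 and Cdh26 (6%, against 2.39%). H3K4me1, which also marks enhancers, was at 28 members in each state, against 59.0% and 57.1% of all genes. It was present only in differentiated cells at Itga8, Itga7, Itgb4 and Cdh26 (8%, against 3.23%) and only in undifferentiated cells at Itgal, Cdh1, Cdh10 and Cdh17 (8%, against 1.40%). Several of these 1-state regions were weak: the H3K9Ac region at Cdh22 stood at score percentile 1.03 of its list, the H4K5Ac region at Itgb2 at 5.38 and the H3K4me1 region at Itgal at 5.49. Others stood high: the H4K5Ac region at Itga7 in differentiated cells at 97.1 and that at Itgb4 in undifferentiated cells at 93.3.

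H3K36me3 marks the bodies of transcribed genes. Regions covered at least 50% of the gene body at 10 members in differentiated cells and the same 10 in undifferentiated cells (20% each), against 40.8% and 40.7% of all genes. Cdh11 was covered to 99.9% in differentiated cells and 99.7% in undifferentiated cells. Itga11 had 98.8% and 98.4%, Itgav 98.6% and 98.9%, and Itgb1 98.1% and 98.5%. Itga3 had 96.8% and 95.7%, Itgb5 94.4% and 91.2%, and Itga5 91.8% and 91.6%. These 7 genes were also those with H3K4me3 at a promoter in both states. Itga10 and Itgb3 were also among the 10. Cdh24, a type II cadherin, had 74.1% and 76.3%. Cdh2 was covered to 28.5% in differentiated cells and 31.1% in undifferentiated cells.

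**Figure D5:**
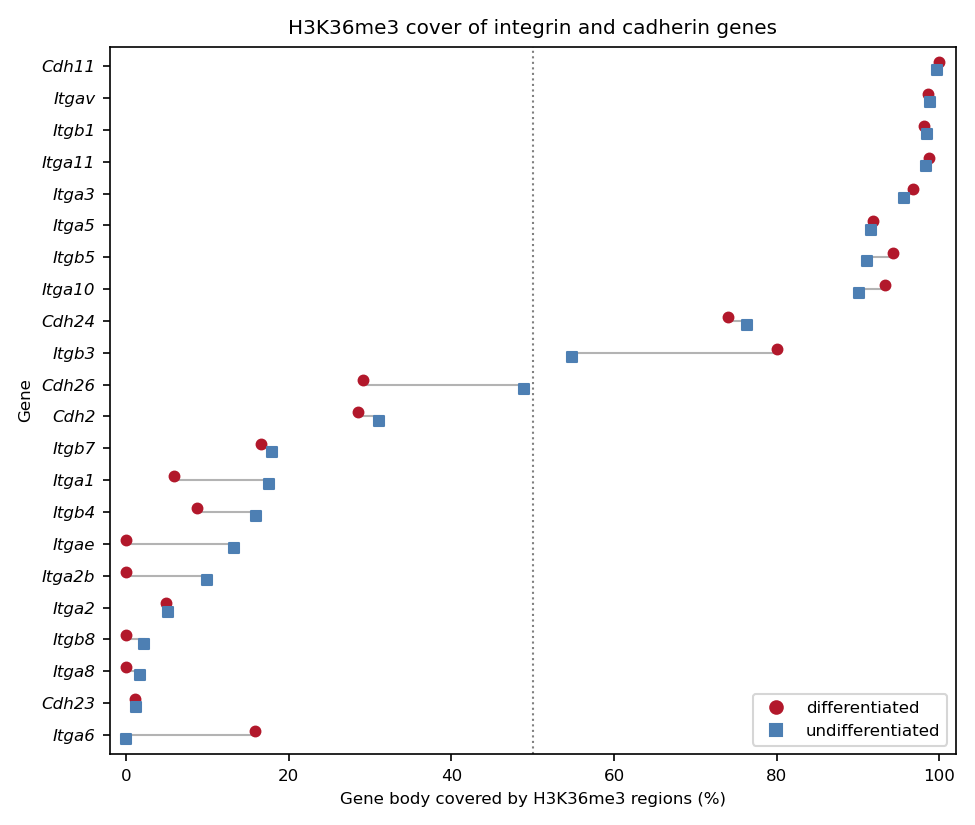
Percentage of the gene body covered by H3K36me3 regions in differentiated cells (red circles) and undifferentiated cells (blue squares), for each gene with cover above 0 in either state, with a dotted line at 50%. Itgb3 has the widest gap, at 80.1% in differentiated cells and 54.8% in undifferentiated cells, and the genes near the top of the plot hardly differ between states.

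Itgb3 stood out in the plot of H3K36me3 cover, with 80.1% in differentiated cells and 54.8% in undifferentiated cells. It was the only member whose cover was higher by 25 points or more in differentiated cells (2%, against 1.69% of all genes). None was lower by as much (0 of 50, upper bound 7.11%, against 1.67% of all genes). Itgb3 thus had more RUNX2 peaks, an H3K4me3 region of low score and wider H3K36me3 cover in differentiated cells, each of them a single value per state. By nearest TSS it had fewer C/EBPβ peaks there, but by gene body plus 10 kb the C/EBPβ count was 3 in each state.

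At the other end, 15 of 50 members had no assigned RUNX2 or C/EBPβ peak, no promoter mark and no H3K36me3 in either state. This was a share similar to that of all genes, with 6954 of 22238. They were Itga4, Itgad, Itgax and Itgb2l among integrins, and Cdh4, Cdh6, Cdh7, Cdh8, Cdh9, Cdh12, Cdh18, Cdh19, Cdh20, Cdh13 and Cdh16 among cadherins. Most of these cadherins are known from the nervous system, and Cdh16 from the kidney. Of the 15, 11 also had no region of any mark in the body. Itgad, Cdh4, Cdh12 and Cdh16 did have such regions, with H4K5Ac over 7.88% of the Cdh16 body in differentiated cells.

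The partners of these receptors were counted in the same way. Of 28 listed cytoplasmic partners, such as talins, kindlins, vinculin and catenins, 27 were found. RUNX2 peaks were at 18 of them in differentiated cells and 22 in undifferentiated cells, with 38 and 68 peaks, and 13 had fewer, 2 more and 7 as many. H3K4me3 was at 17 of their promoters in each state. Of 20 matrix ligands, such as fibronectin, osteopontin, bone sialoprotein and type I collagen, 13 had RUNX2 peaks in each state, with 37 peaks in differentiated cells and 54 in undifferentiated cells. Fewer were seen at 9 of them and more at 3. H3K4me3 was at 13 ligand promoters in differentiated cells and 10 in undifferentiated cells. Among all genes, 15.0% had a RUNX2 peak in differentiated cells and 27.3% in undifferentiated cells. Fewer were seen at 19.8% of all genes and more at 2.92%, with a ratio of peaks of 0.485. H3K4me3 was at the promoters of 40.1% and 34.9% of all genes. The part of list length in the partner and ligand counts was not tested.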

How the data were processed

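ChIP-seq was done in MC3T3-E1 cells with 7 antibodies in 2 states. The authors deposited 1 BED list per antibody and state, whose score column is the deposited score of a region (0 for every RUNX2 and C/EBPβ peak). Per the submitters' processing notes, Bowtie and HOMER were used on mm9, with no version or threshold in the sources used here. By the peak names in the deposited lists, each peak merges at least 2 calls, so replicates are not separate. Scores were used only to rank regions within a list.

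Lists were joined to GENCODE vM1 on NCBIM37 (the same build as mm9), with records of 1 symbol merged to 22238 genes. Peaks were assigned by the nearest TSS, up to 100 kb away, a promoter was 1 kb to either side of any TSS, and overlap meant at least 1 bp. Shares carry exact Clopper-Pearson 95% intervals, which count each gene or peak as independent. No test between states was possible with 1 list per state. Steps were tested on simulated data. Alternatives varied the assignment, promoter width, overlap, cover limit and score limit. Python 3.11.15, numpy 2.4.6, scipy 1.17.1, pysam 0.24.0 and matplotlib 3.10.9 were used.

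Genes named with values were the well-known members of each role, members with 3 or more peaks of a factor in a state, members with RUNX2 peaks more numerous in differentiated cells, and members with 1-state H3K4me3 or an H3K36me3 difference of 25 points. Others were named after their values were seen. The members and lists were chosen with earlier results of these data known.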

Additional observations from a re-analysis of the deposited data

How the results depend on the processing

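Of the main results under the other settings, 112 were classed as the same, 6 as moved and none as reversed. Values classed as the same could still shift. Within 20 kb of a TSS, members with a RUNX2 peak in undifferentiated cells fell from 20 to 14. The comparison with all genes turned round at that setting. The shares of members were 14% in differentiated cells and 28% in undifferentiated cells, below the 16.0% and 32.5% of all genes. By nearest TSS they were above, at 22% against 15.0% and 40% against 27.3%. With peaks counted at every gene with a TSS within 20 kb, RUNX2 peaks were at 7 members in differentiated cells, and more C/EBPβ peaks in differentiated cells were seen at 3 members. More RUNX2 peaks in differentiated cells were seen at 4 members by gene body plus 10 kb and at 4 with 1 TSS per gene. With H3K9Ac regions limited to the upper 75% by score, 34.0% of member RUNX2 peaks and 26.1% of member C/EBPβ peaks lay inside them in undifferentiated cells. The cause of these shifts was not tested. Of the single-gene values, 176 stayed and 52 moved, most of them by assignment: at Itga11 the RUNX2 counts were 1 in each state within 20 kb, and Cdh5 had none within 50 kb. No paired analysis was possible because the deposited lists merge the replicates. Read depth is unknown, so the part of depth in the peak counts was not tested.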
